A study of Mus musculus with 3 samples.

Results

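Accessible chromatin was examined at the loci of 6 genes of the transcription factor AP-1: Fos, Fosb and Fosl2 of the Fos family, and Jun, Junb and Jund of the Jun family. The members were all ATAC-seq peaks that overlapped 1 of 6 fixed windows of 50 to 100 kb on the mouse build mm9, 1 window per gene. Peaks of different animals that overlapped by at least 1 bp were joined into 1 region. This gave 33 regions, made of 82 peaks, out of 84529 joined regions in all. In ATAC-seq, a transposase (Tn5) inserts sequencing adapters into open DNA, and places where many reads pile up are called as peaks of accessible chromatin, such as promoters and enhancers. The data come from the microdissected dentate gyrus of 3 C57BL/6 mice aged 8 weeks, 1 library per individual, all in the group labelled E24, a label that is not spelled out. The series concerns the change of accessibility after neuronal activation, but with 1 group no comparison between conditions was made, and all values below are descriptions with no test. The files name no genes, and the gene names are those of the windows. The tissue is a mixture of cell types, and peaks of fewer cells and weaker peaks per cell cannot be told apart.

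AP-1 is a dimer of bZIP proteins that binds short palindromic DNA elements. Jun proteins form dimers with each other or with Fos proteins, while Fos proteins need a Jun partner to bind DNA well. Fos, Fosb and Junb are classic immediate-early genes, which neurons transcribe within minutes of activity through factors such as CREB and SRF that are already bound to their promoters and enhancers. Fos is widely used as a mark of recently active neurons, and a truncated form of Fosb protein is known for building up in the dentate gyrus after repeated activity.

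CRE-type elements, the binding sites of CREB, are known to take part in the activity response of such genes. Promoter sequences are shown for the 4 members with a match to the core TGACG or the similar octamer TGACNTCA. Fosl2 and Jund had neither and are not shown. The sequences are the 250 bases before the annotated gene start, from RefSeq, 5′ to 3′ on the strand of the gene. Capitals mark matches on either strand to the CRE core TGACG, the CRE-like or AP-1-like octamer TGACNTCA or the TATA box TATAAA. Their positions are on another build than the peaks, so where the peaks lie relative to them was not determined.
Fos (GRCm38.p6 chr12:85473640-85473889, plus strand): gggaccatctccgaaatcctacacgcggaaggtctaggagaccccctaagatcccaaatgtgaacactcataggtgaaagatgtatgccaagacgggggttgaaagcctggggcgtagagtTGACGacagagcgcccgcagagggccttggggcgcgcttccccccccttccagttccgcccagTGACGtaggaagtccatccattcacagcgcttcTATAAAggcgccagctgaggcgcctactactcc
Fosb (GRCm38.p6 chr7:19310046-19310295, minus strand): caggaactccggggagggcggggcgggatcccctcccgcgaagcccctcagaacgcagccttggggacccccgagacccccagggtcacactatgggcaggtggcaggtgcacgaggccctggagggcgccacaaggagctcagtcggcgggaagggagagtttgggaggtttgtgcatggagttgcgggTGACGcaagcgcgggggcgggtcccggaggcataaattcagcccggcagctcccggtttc
Jun (GRCm38.p6 chr4:95052223-95052472, minus strand): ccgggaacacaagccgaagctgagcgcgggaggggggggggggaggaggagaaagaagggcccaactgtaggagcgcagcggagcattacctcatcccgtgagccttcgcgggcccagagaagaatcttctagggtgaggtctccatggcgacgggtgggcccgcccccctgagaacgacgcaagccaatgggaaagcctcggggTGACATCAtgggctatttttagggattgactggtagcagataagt
Junb (GRCm38.p6 chr8:84978749-84978998, minus strand): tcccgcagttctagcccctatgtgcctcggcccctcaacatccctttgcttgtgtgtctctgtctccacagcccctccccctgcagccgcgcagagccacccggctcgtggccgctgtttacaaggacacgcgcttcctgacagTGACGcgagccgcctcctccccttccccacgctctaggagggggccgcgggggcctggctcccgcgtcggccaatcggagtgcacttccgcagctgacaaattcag

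All 6 members were matched in the promoter table, and each motif was searched on both strands. The core TGACG occurred in 3 of them: at 2 positions in Fos, and at 1 each in Fosb and Junb. Of all 32851 promoter sequences of that length, 17.8% held it. In Fos the matches began 129 and 66 bases before the start, in Fosb 60 and in Junb 106. The octamer TGACNTCA takes in the full CRE, can overlap TGACG, and is the AP-1 site TGACTCA with 1 base added after TGAC. It is thus CRE-like or AP-1-like, and which proteins bind it was not tested. This octamer occurred in Jun alone, as TGACATCA beginning 45 bases before the start, against 7.49% of all promoters. TATAAA occurred in Fos alone, against 12.4%. The full CRE TGACGTCA (1.55% of all promoters), the AP-1 site TGACTCA (4.46%) and the core of the serum response element (0.0609%) had no match in the 6 promoter sequences, which says only that these letters are not in the 250 bases searched. The GC box GGGCGG, against 32.7%, was found in Fos, Fosb, Fosl2 and Jun, and CCAAT, against 33.8%, in Jun and Junb. The promoters of Fos and Jun held 15 CpG each, those of Fosb, Fosl2 and Junb 19, 23 and 20, and that of Jund 3, where the median of all promoters was 6. Whether the Jund entry, the only member without a match to any of these motifs, is the main start of Jund was not checked, so its values may not be those of the promoter in use.

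Of the 33 regions, 20 were called in every animal, 9 in 2 animals and 4 in a single animal. The share held by all 3 was 60.6%, beside 43.6% of all joined regions. The 2 values came close to each other, in the opposite order, when shared peaks had to overlap by 50% of both (30.2% beside 32.5%) and in the highest-scoring 50% of each list (46.2% beside 50.4%). Replicate 1 had 26 peaks in the windows, replicate 2 had 30 and replicate 3 had 26, from lists of 62912, 68699 and 48769 peaks. Peaks covered 5.79%, 6.69% and 3.35% of the windows in replicates 1, 2 and 3, beside 1.53%, 1.71% and 0.846% of the autosomes. The windows were thus covered 3.89 ± 0.09 times as densely as the autosomes (SD, n = 3 animals). The windows were laid around genes, and the autosomes include stretches without genes.

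**Figure D1:**
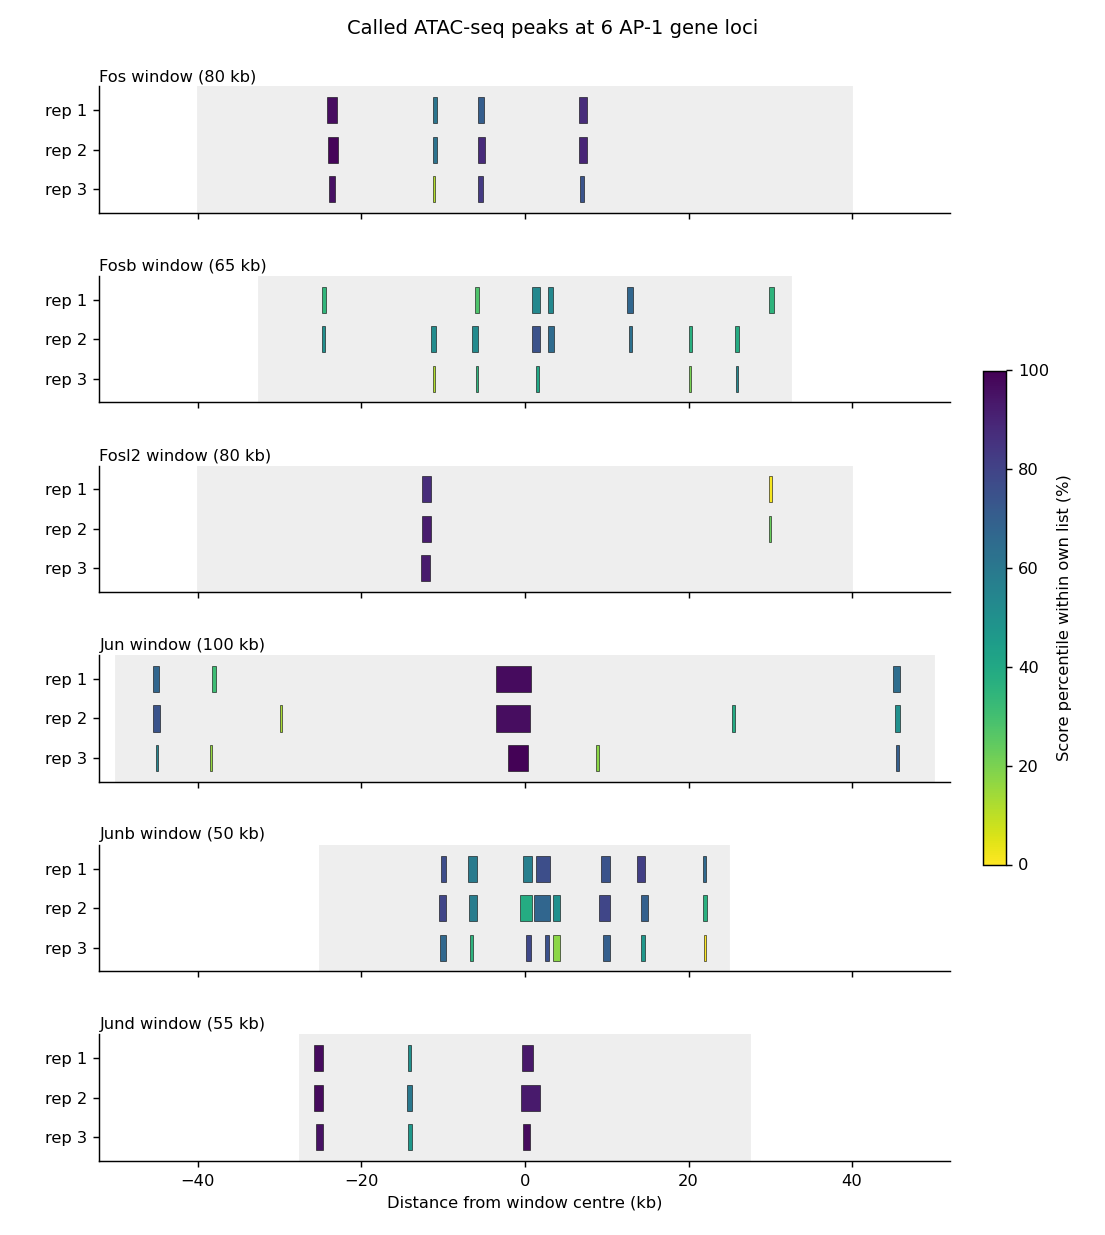
Peaks of each animal in the 6 windows, drawn to scale against the distance from the window centre in kb; grey marks the window, and the colour of a bar is the percent of that animal's peaks with a lower score. The Junb window is crowded with peaks, the Fosl2 window holds a single strong region, and the Jun window holds 1 very wide region near its centre.

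The deposited peak score has no unit and depends on read depth, which is unknown, so each score is given with its percentile, the percent of peaks of the same animal's list that scored lower. Regions are numbered by position within their window, as Fos-1 to Fos-4, and positions count from 1.

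The Fos window, chromosome 12 from 86780000 to 86860000, held 4 regions, and all 4 were found in every animal. Fos encodes the founding Fos family protein, and its gene is known to be flanked by several enhancers that respond to neuronal activity. The highest region was Fos-1, from 86795770 to 86797168, which scored 801 in replicate 1, 1258 in replicate 2 and 513 in replicate 3. These scores stood at percentiles 96.5, 98.6 and 96.0, so that Fos-1 was among the strongest peaks of each animal. Fos-4, from 86826598 to 86827569, scored 420, 558 and 171 (percentiles 87.7, 89.8 and 73.9). Fos-3, from 86814268 to 86815119, scored 210, 504 and 230 (percentiles 70.4, 88.0 and 83.0). The 2 regions changed places between animals, with Fos-4 higher in replicates 1 and 2 and Fos-3 higher in replicate 3. Fos-2, from 86808711 to 86809294, lay near the middle of the list in replicates 1 and 2 (percentiles 61.3 and 61.9) and far lower in replicate 3 (percentile 11.7). The stretches without peaks between Fos-1, Fos-2, Fos-3 and Fos-4 were, in order, 11542, 4973 and 11478 bp long. Which of the 4 holds the start of Fos was not determined.

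The Fosb window, chromosome 7 from 19860000 to 19925000, had the most regions, 9, and the lowest share of them held by all 3 animals, 22.2%. Fosb encodes a Fos family protein with long and truncated forms. All 3 animals held 2 of the 9, a further 6 were in 2 animals and 1 was in 1. Fosb-4, from 19893328 to 19894344, was the highest shared region, with scores of 132, 281 and 82.7 in replicates 1, 2 and 3 (percentiles 53.5, 74.9 and 40.5). Fosb-3, from 19885987 to 19886906, scored 78.0, 142 and 76.2 (percentiles 28.0, 52.5 and 35.5). Both regions were thus of middle or low rank, and neither stood above percentile 74.9 in any animal. The strongest region not held by all was Fosb-6, from 19905013 to 19905724, which scored 191 and 192 in replicates 1 and 2 (percentiles 67.2 and 63.6) and had no peak in replicate 3. Fosb-1 and Fosb-5 were missing from replicate 3 too, while Fosb-2, Fosb-7 and Fosb-8 were missing from replicate 1. Without replicate 1 or without replicate 3, 5 regions were shared by the remaining 2 animals. With a required overlap of 50%, or in the highest-scoring 50% of each list, no Fosb region was held by all 3.

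The Fosl2 window, chromosome 5 from 32410000 to 32490000, held the fewest regions of the 6 windows, 2, and 1 of them was in every animal. Fosl2 encodes Fra-2, a Fos family protein without the strong activation domain of Fos. Its shared region, Fosl2-1, ran from 32437334 to 32438545 and scored 415, 661 and 394 in replicates 1, 2 and 3 (percentiles 87.4, 92.3 and 92.9). Of the 20 shared regions, it had the largest share of its width common to the 3 peaks. This stretch was 1015 bp, or 83.7% of the region, where the median of the 20 was 45.9%. The other region, Fosl2-2, from 32479789 to 32480177, scored 51.0 and 74.2 in replicates 1 and 2 (percentiles 1.38 and 23.1) and had no peak in replicate 3. Between them lay 41243 bp with no peak in any animal, the longest empty stretch between regions in the 6 windows.

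The Jun window, chromosome 4 from 94670000 to 94770000, was led by 1 region. Jun encodes the main DNA-binding partner of the Fos proteins. Jun-4, from 94716474 to 94720768, was 4295 bp long, the widest of the 33 regions. Its peaks were 4266, 4160 and 2343 bp wide in replicates 1, 2 and 3 and scored 841, 985 and 920, at percentiles 96.9, 96.8 and 99.4. Unlike Fos-1, it stood highest in replicate 3, the list with the fewest peaks. The other shared regions were weaker and lay toward the window edges: Jun-1, from 94674520 to 94675354, stood at percentiles 67.4, 74.6 and 55.0. Jun-7, from 94765046 to 94765886, stood at percentiles 64.6, 50.01 and 70.0. Of the 4 regions not shared by all, Jun-2 was in replicates 1 and 3, Jun-3 and Jun-6 in replicate 2 and Jun-5 in replicate 3. None of these stood above percentile 39.2, and the highest was Jun-6, from 94745282 to 94745673, with a score of 103 in replicate 2. The nearest shared regions inside the window were 41119 bp before and 44277 bp after Jun-4.

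The Junb window, chromosome 8 from 87475000 to 87525000, was the shortest and the most crowded, with peaks over 13.8%, 17.8% and 8.74% of its length in replicates 1, 2 and 3. Junb encodes a Jun family protein that is induced rapidly by activity and binds DNA less strongly than Jun as a homodimer. All 3 animals held 7 of its 8 regions, and replicates 2 and 3 held the other, Junb-5, from 87503407 to 87504349. Junb-6, from 87509061 to 87510391, scored 240, 330 and 153 in replicates 1, 2 and 3 (percentiles 74.3, 79.0 and 70.0). Junb-1, from 87489511 to 87490391, scored 262, 335 and 140 (percentiles 76.9, 79.3 and 66.6). Junb-4, from 87501174 to 87503094, was the widest joined region of the window at 1921 bp. Its peak was not the widest in replicate 3 (489 bp, beside 835 bp for Junb-5). Junb-4 scored 258, 217 and 178 (percentiles 76.5, 67.4 and 75.3). These 3 differed by less than their spread over animals, with means of 74.4 ± 4.5, 74.3 ± 6.8 and 73.1 ± 4.9 (SD, n = 3). The animals did not share a highest region: it was Junb-7 in replicate 1 (percentile 81.5), Junb-1 in replicate 2 (79.3) and Junb-3 in replicate 3 (78.3). Junb-3, Junb-4 and Junb-5 lay side by side, 297 and 312 bp apart. Junb-8, from 87521746 to 87522219, ranged most of all members, from percentile 66.3 in replicate 1 to 36.6 in replicate 2 and 0.0718 in replicate 3, where its score of 50.07 was at the floor of the list.

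The Jund window, chromosome 8 from 73195000 to 73250000, held 3 regions, all in every animal. Jund encodes the Jun family protein that is expressed most constantly and depends least on stimulation. Jund-1, from 73196743 to 73197868, scored 837, 1046 and 488 in replicates 1, 2 and 3 (percentiles 96.9, 97.3 and 95.5). Jund-3, from 73222071 to 73224301, was the wider as a joined region, at 2231 bp. In replicate 3 its peak was narrower than that of Jund-1 (808 beside 868 bp). Jund-3 scored 607, 710 and 584 (percentiles 93.5, 93.2 and 97.0). Jund-1 was thus the higher in replicates 1 and 2 and Jund-3 in replicate 3. Jund-1 lay only 1743 bp inside the window edge. Jund-3 alone, at a mean percentile of 94.6 ± 2.1 (SD, n = 3), also stood above the highest region of Fosl2 in every animal. Jund-2, from 73208139 to 73208665, was of middle rank (percentiles 50.02, 60.1 and 46.8).

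**Figure D2:**
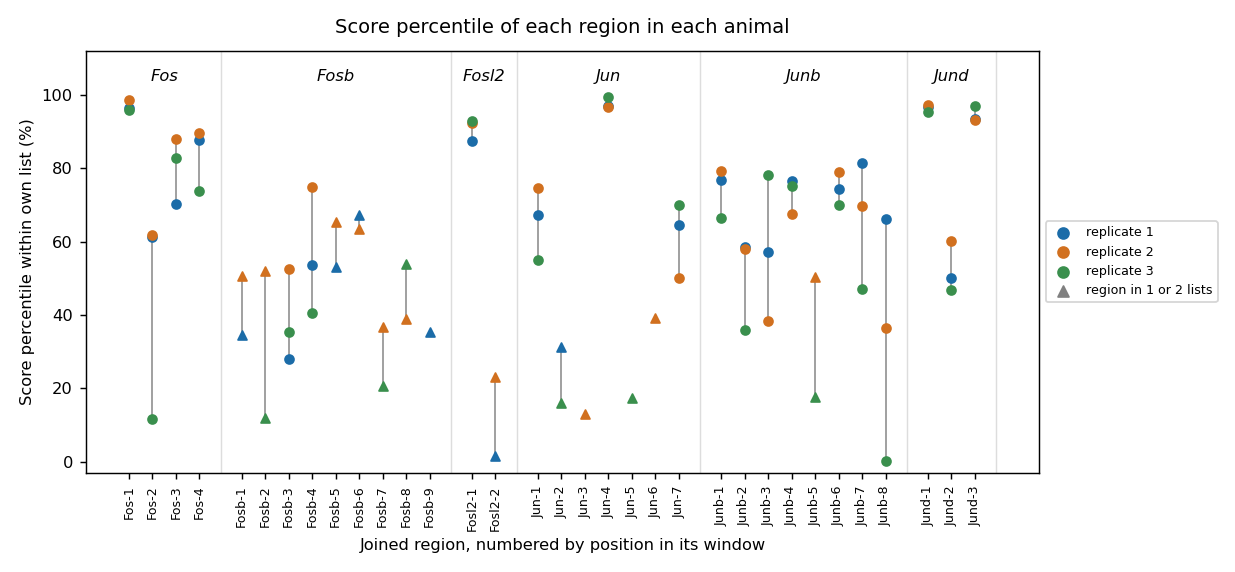
Percent of each animal's peaks that scored lower, for all 33 regions; circles are regions held by all 3 animals, triangles regions in 1 or 2 lists, and grey lines join the animals. Fos-1, Jun-4, Jund-1 and Jund-3 lie above 90 in all 3 animals, and Fos-2 and Junb-8 spread most widely.

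The loci were ordered by the percentile of their highest shared region. Jun stood at 97.7 ± 1.4, Fos at 97.0 ± 1.4, Jund at 96.6 ± 1.0, Fosl2 at 90.9 ± 3.0, Junb at 74.4 ± 4.5 and Fosb at 56.3 ± 17.4 (SD, n = 3 animals). Jun, Fos and Jund did not differ beyond their spread, and each animal had them in a different order. Fosl2 stood below these 3 and above Junb in every animal, and Junb stood above Fosb in every animal, by 20.8, 4.0 and 29.5 points in replicates 1, 2 and 3. Each animal's own highest region, shared or not, stood at 67.2, 74.9 and 53.9 in Fosb, closer to Junb in replicates 1 and 3. In Junb it stood at 81.5, 79.3 and 78.3. Ranked by peak width in place of score, Jun led at 99.9 and Fosb stayed last at 76.3, while Fos moved down to 92.1, beside Junb at 92.3 and Fosl2 at 93.6. The place of Jund rested on Jund-1, 1743 bp inside the window edge, and the order was not computed with moved bounds. Jund-3 stood below the highest regions of Fos and Jun in replicates 1 and 2, and between them in replicate 3.

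A score in the highest 10% of every list was found in 4 of the 20 shared regions: Fos-1, Jun-4, Jund-1 and Jund-3. Of all regions held by all 3 animals, 11.7% met this. Fosl2-1 missed it in replicate 1 alone. Over the 20 regions the median percentile was 72.3, 74.8 and 70.0 in replicates 1, 2 and 3, beside 69.9, 72.3 and 61.5 over all shared regions. With lists of equal length, the mean of these medians was 66.3, level with 65.9 over all shared regions. The mean percentile of 12 of the 20 lay above the median of all shared regions. The loci thus held 4 of the strongest regions of each animal beside many of middle rank.

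The shared regions at these loci were wide. Their median width was 1034 bp, beside 692 bp over all regions held by all 3 animals, and 17 of the 20 were wider than that. A joined width over 2 kb was found in 2 of the 20, Jun-4 and Jund-3, beside 2.89% of all shared regions. The single peaks of Jund-3 were 1342, 2231 and 808 bp wide in replicates 1, 2 and 3, so only replicate 2 passed 2 kb there. The median peak width in the 20 was 985.5, 970.5 and 483 bp in replicates 1, 2 and 3. Over all shared regions it was 601, 623 and 397 bp. The peak of replicate 3 was the narrowest in 19 of the 20, as in 90.01% of all shared regions, the exception being Junb-1, where replicate 1 had 616 bp and replicate 3 had 622 bp. Replicate 3 also had the lowest percentile in 12 of the 20, beside 58.7% of all shared regions. The median SD of the percentile over animals was 8.8 points in the 20 regions and 8.4 over all shared regions, so the members varied between animals about as much as shared regions in general.

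**Figure D3:**
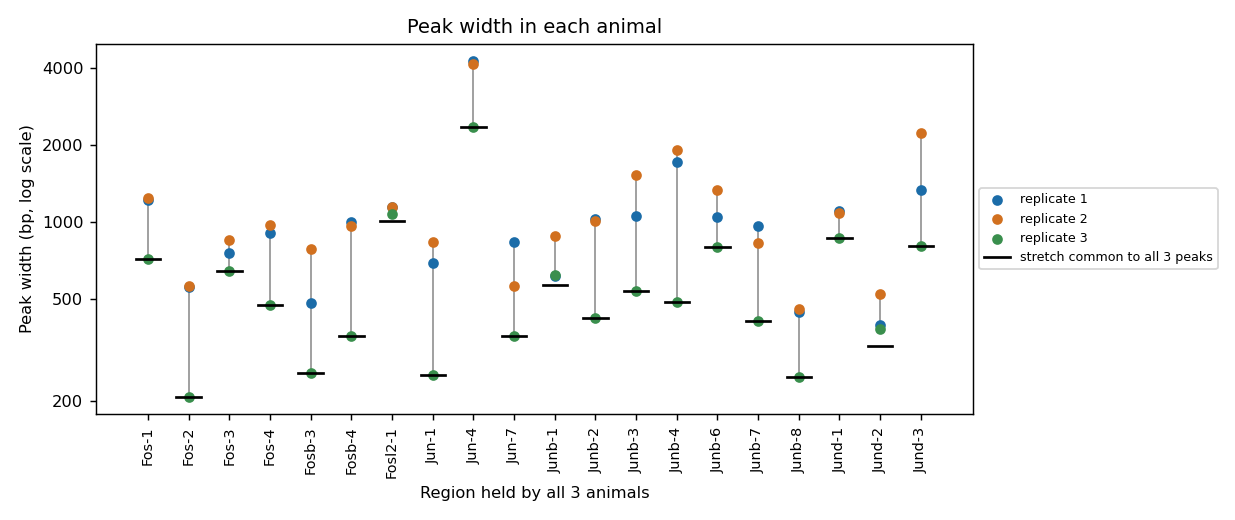
Width of the peak of each animal, in bp on a log axis, in the 20 regions held by all 3 animals; black bars mark the stretch common to the 3 peaks. Jun-4 is the widest in each animal, and the common stretch is set by the peak of replicate 3 in most regions.

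To set the crowding of each window against the genome, the autosomes were divided into tiles of the window's length. Of 48245 tiles of 50 kb, 11 (0.0228%) held at least the 7 shared regions of the Junb window, and the median tile held 0. The share of tiles with at least as many shared regions was 6.09% for Fos with 4, 7.25% for Jund with 3, 21.8% for Jun with 3, 26.3% for Fosb with 2 and 61.4% for Fosl2 with 1. Junb thus had the most crowded window, and Fosl2 held as many shared regions as the median tile of its length, 1. With a required overlap of 50%, 4 Junb regions were held by all 3 animals and 0.765% of tiles held as many. These shares describe the places of 6 chosen windows and are not chance levels.

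**Figure D4:**
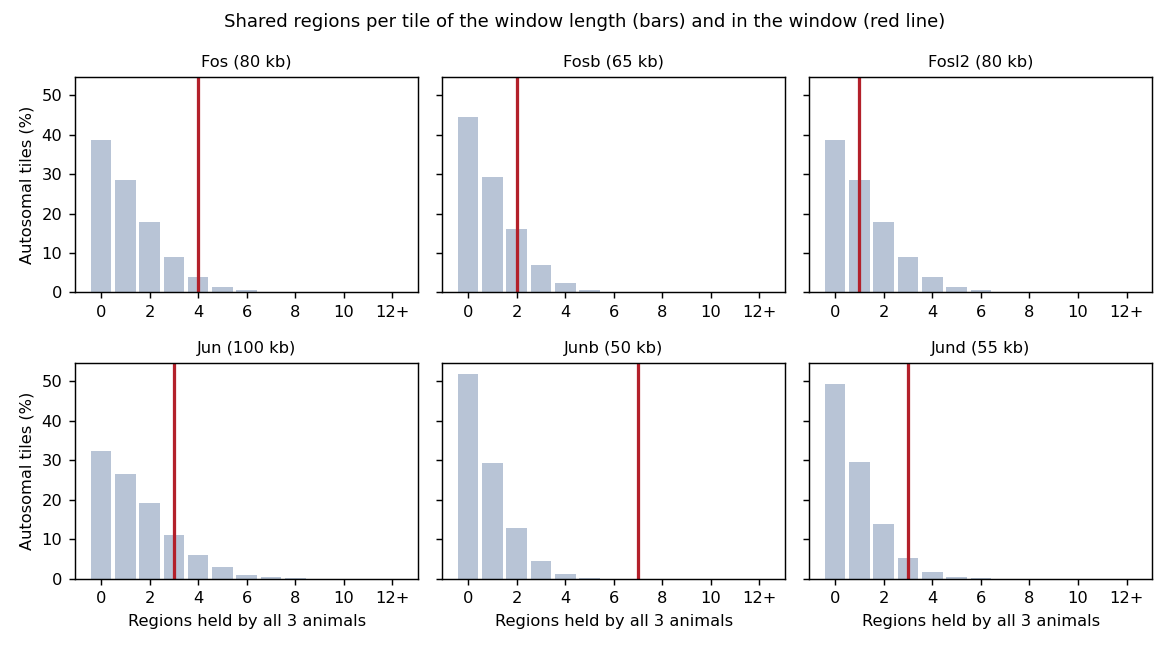
Percent of autosomal tiles, each as long as the window named above the panel, by their number of regions held by all 3 animals; the red line is the number in the window. The line for Junb, at 7, lies far in the tail, and that for Fosl2, at 1, lies among the most frequent values.

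The window bounds decided which regions counted. Just outside the Jun window lay shared regions of high score, 1409 bp before it (scores of 564, 645 and 211 in replicates 1, 2 and 3) and 1882 bp after it (655, 866 and 396). A shared region also lay 2429 bp before the Fos window (412, 591 and 211). Around the Junb window the nearest regions were 13486 bp before and 12140 bp after, so the crowded stretch ended inside the window. Just inside the bounds lay Jund-1, Fosb-9 (2057 bp, score 89.5 in replicate 1 alone), Junb-8 (2781 bp), Jun-7 (4114 bp) and Jun-1 (4520 bp). In the RefSeq gene order the nearest protein-coding neighbours were Tmed10 and Jdp2 for Fos, Rtn2 and Ercc1 for Fosb, Babam2 and Plb1 for Fosl2, Mysm1 and Fggy for Jun, Prdx2 and Hook2 for Junb, and Lsm4 and Iqcn for Jund. Jdp2 and the gene after it, Batf, encode bZIP proteins that also pair with Jun proteins. Which gene a region belongs to was not determined.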

How the data were processed

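ATAC-seq peak lists of 3 dentate gyrus samples, 1 animal each, were used. Reads were aligned with Bowtie2 to mm9, per the submitters' processing notes, and the peak names in the deposited lists are those of MACS. Versions, MACS settings, read filters and any Tn5 shift were not given in the sources used here. The deposited score per peak has no unit, and its lowest value was 50 in the lists, so weaker signal was not reported and a missing peak is not shown to be closed chromatin. Read depth is unknown, and the precision is limited to that of 3 animals. The grouping follows the labels' replicate numbers.

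Windows were fixed intervals, 1 per gene, and members, motifs and summaries were chosen with earlier results of these data known. Named regions were the 3 highest shared regions of each window, the widest, and the strongest not held by all; other regions were named after their values were seen. Tiles were laid end to end from the first region of each autosome. No genome or annotation of mm9 was used. Promoter sequences and gene order came from RefSeq, GRCm38.p6. Joining, percentiles and tile counts were tested on simulated lists. In these, regions lay well apart and their peaks overlapped almost fully, so close neighbours and partial overlaps were not tested. Alternatives were 50% reciprocal overlap, the highest-scoring 50%, equal list lengths, each replicate left out, moved window bounds, ranking by width and, chosen after seeing the data, tiles with a peak and percentiles among shared regions. The work used Python 3.11.15 with scipy 1.17.1, pandas 2.3.3, matplotlib 3.10.9 and numpy 2.4.6.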

Additional observations from a re-analysis of the deposited data

How the results depend on the processing

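Of 111 alternative values for 21 results, 75 stayed within the bound, which was 1 SD over animals, the exact 95% binomial interval of a share, or a factor of 1.5 for a count. An SD over 3 animals bounds what leaving 1 out can do to a plain mean, so those values lend little support. The interval for the share held by all 3, 42.1% to 77.1%, treats regions as independent, which regions of 1 window are not. It is also wide, so values of this share within it lend little support either. Widening the windows by 20 kb on each side raised the regions to 51. A required overlap of 50% lowered the share held by all 3 animals to 30.2% and set the mean of the animals' median percentiles over shared regions at 81.0, against 72.4. Over all shared regions of the lists, this mean was 69.1 and 67.9. It was 66.8 (all shared regions, 65.1) in the highest-scoring 50% of each list, 66.3 (65.9) with equal list lengths and 83.4 (64.8) by peak width. With 1 replicate left out it was 64.7 to 70.2 (60.4 to 64.1).

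For the highest region, the highest-scoring 50% gave 94.1 for Fos, 81.8 for Fosl2, 95.4 for Jun, 48.9 for Junb and 93.1 for Jund, lower by construction, and no value for Fosb. Equal list lengths gave 69.2 for Junb. Percentiles among shared regions alone were 95.4 for Fos, 36.8 for Fosb, 84.9 for Fosl2, 96.0 for Jun, 59.5 for Junb and 94.6 for Jund. Ranking by width gave 92.1 for Fos, 76.3 for Fosb, 99.9 for Jun, 92.3 for Junb and 95.5 for Jund. The cause was not tested.

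With 50% overlap, the share of tiles as full as the window was 10.7% for Fos, 100% for Fosb, which then had none, 56.4% for Fosl2, 34.4% for Jun, 0.765% for Junb and 4.75% for Jund. Over tiles with a peak it was 7.44% for Fos, 34.0% for Fosb, 75.0% for Fosl2, 25.4% for Jun and 9.87% for Jund. No paired analysis was possible because the samples form a single group. Read depth is unknown and limits every statement on a missing peak.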
